A study of Homo sapiens with 9 samples.

Results

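Messenger RNA was measured in MDA-MB-231 cells that had been kept either in plain medium or in medium harvested from other cultures of the same line. MDA-MB-231 is an established line of human breast cancer cells, mesenchymal in its markers and without receptors for oestrogen or progesterone. Cells labelled WT were given plain medium (No CM), medium conditioned by non-senescent MDA-MB-231 cells (Cont CM), or medium harvested from MDA-MB-231 cells that nocodazole had made senescent (TIS CM), with 3 libraries in each of the 3 groups. All groups were maintained in DMEM with 10% FBS, the incubation lasted 72 h by the sample labels and 48 h by the series' design text, and conditioned medium is a mixture that lacks what its donor cells had used up and holds what they had released. The comparison here is Cont CM with No CM. It covers every gene whose mean over the 9 libraries reached 0.5 FPKM (fragments scaled by library depth and by gene length), which were 13912 of the 58735 genes in the table.

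Cells in medium that other cells have used meet cytokines and growth factors that they themselves secrete, such as interleukin-1, and meet lower glucose and amino acids, more lactate and a lower pH than cells in fresh medium. Known readouts of such signals are NF-kB targets for interleukin-1, SMAD targets for TGF-beta and BMP ligands, STAT and IRF targets for interferons, PPAR and SREBP targets for fatty acids and sterols, and HIF targets for hypoxia. None of these inputs was measured here, and only their possible transcripts are described. In RNA pooled from a whole culture, fewer cells of a type and less RNA per cell cannot be told apart.

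The label of the cells was checked against markers. VIM, CD44, CAV1 and AXL, the mesenchymal and surface markers of the line, had No CM means of 358, 85.2, 208 and 196 FPKM, and none of these 4 passed the test between the groups. The other 3 tested markers that the line holds at a high level, S100A4, KRT8 and KRT18, were called lower in Cont CM and are described with the epithelial markers. ESR1, PGR and FOXA1, which mark luminal cells, lay below the expression filter, and so did SPARC, another mesenchymal marker. Of 10 luminal epithelial markers, however, 7 passed the filter, and 5 of these fell, as given with the epithelial markers. Of 12 immune markers 2 passed the filter (CD14 and CSF1R) and PTPRC did not, of 9 fibroblast markers 3 did (COL1A1, COL6A3 and PDGFRB), of 7 endothelial markers 1 (KDR), and of 6 adipocyte markers 0. CD14 fell (5.05, 4.03 and 5.17 FPKM in No CM and 3.63, 3.14 and 3.37 in Cont CM, log2 difference -0.43 ± 0.10, adjusted p = 0.0173), a call lost without No CM replicates 1 or 3 or Cont CM replicate 2 (adjusted p 0.0543 to 0.069). Its part, and that of PDGFRB described with the growth factor receptors, in any other result was not tested.

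The 9 libraries held between 32636708 and 39189036 fragments on genes, so that a single fragment on a 1 kb gene added 0.0255 to 0.0303 FPKM. Cont CM replicate 1 lay apart from the other Cont CM libraries on the second principal component, and Cont CM replicate 2 had a trend with GC content and gene length that took up 17.7% of its deviations' variance. Such deviations correlated with GC content at -0.03, -0.41 and -0.20 in Cont CM and at -0.02, 0.18 and 0.19 in No CM. The trend thus ran in part with the 2 groups compared. No label says whether replicates came from separate cultures, and p-values therefore measure a spread between libraries that may be technical. Levels are given in the order of replicates 1, 2 and 3. Differences are on the scale log2(FPKM + 0.5), Cont CM minus No CM, and are given with their SE, and p-values are from limma, adjusted by Benjamini-Hochberg over all 13912 genes. A gene is said to have risen or fallen only at an adjusted p under 0.05.

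Cont CM held 1081 genes higher and 1191 lower than No CM, 7.77% and 8.56% of the genes tested and 16.3% together. Most changes were small. The median change was 1.21-fold for genes that rose and 1.23-fold for genes that fell, 124 and 198 genes passed 1.5-fold, 23 and 39 passed 2-fold, and 3 and 6 passed 3-fold. The 3 libraries of Cont CM did not overlap those of No CM for 1079 of the 1081 and 1188 of the 1191, against 33.3% of all tested genes in either direction. Calls made up 8.68% of genes between 0.5 and 2 FPKM, 26.5% of genes between 50 and 200 FPKM and 19.4% of the 139 genes above that. Genes that rose had a median GC content of 44.2% and genes that fell 56.3%, against 48.5% over all tested genes. The log2 difference correlated with GC content at -0.26 over all tested genes. The part of GC content in the calls was not tested beyond the removal of that trend described among the limits. When each of the 6 libraries was left out in turn, 436 of the genes that rose and 514 of those that fell kept their call in every omission. The 2 counts were 703 and 774 without No CM replicate 1, 730.0 and 767 without No CM replicate 2, and 492 and 583 without No CM replicate 3. They were 573 and 669 when the 6 compared libraries were fitted without TIS CM. A gene described below as risen or fallen is one of these unless the text says otherwise, and a list's count stayed within 1.5 times in these 6 omissions, and with the trend in GC content and gene length removed from each library, unless another count is given.

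**Figure D1:**
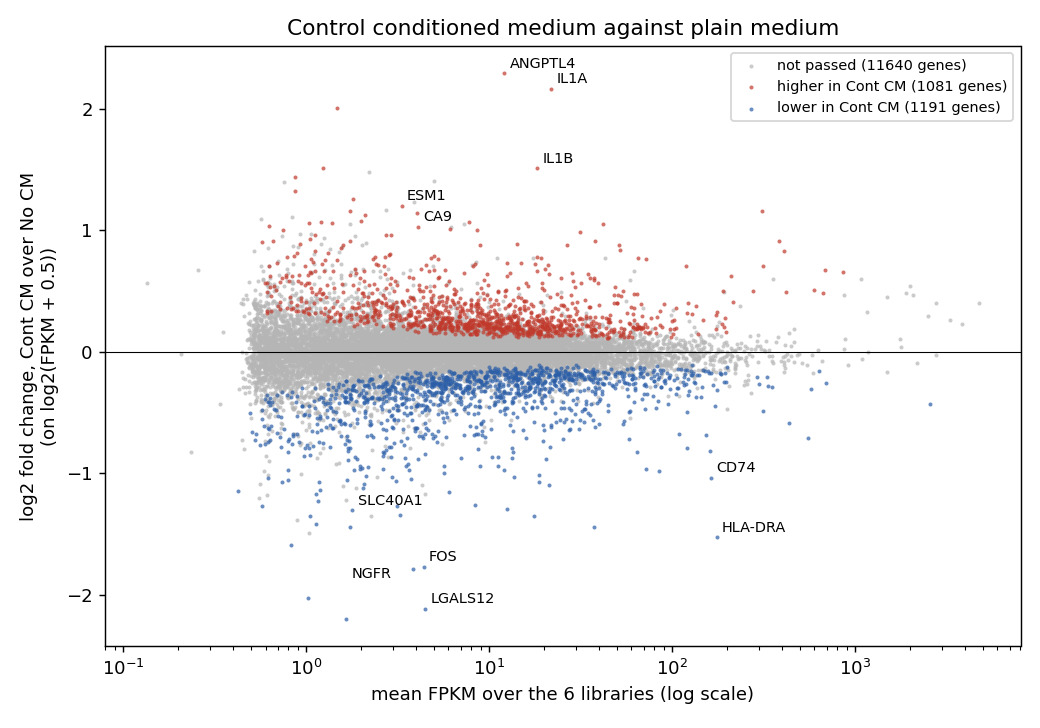
Each point is a gene, with its mean level over the 6 No CM and Cont CM libraries on a log axis and its log2 difference, Cont CM minus No CM, on the other axis. The 1081 red points are genes called higher and the 1191 blue points genes called lower, and most lie within a 2-fold change, with ANGPTL4, IL1A and IL1B at the top and LGALS12, NGFR and FOS near the bottom.

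The interleukin-1 cytokines were among the largest rises. IL1A (ENSG00000115008, chromosome 2, 112773915 to 112784590, minus strand) and IL1B (ENSG00000125538, chromosome 2, 112829751 to 112836903) encode the pair of cytokines that signal through the receptor IL1R1 to NF-kB. IL1A stood at 7.88, 7.69 and 7.34 FPKM in No CM and 33.5, 37.7 and 36.7 in Cont CM. Every Cont CM library was far above every No CM library, and the log2 difference was 2.16 ± 0.08, adjusted p = 2.19e-06. IL1B stood at 9.01, 9.79 and 8.90 FPKM in No CM and 29.7, 24.4 and 27.7 in Cont CM, a difference of 1.51 ± 0.09, adjusted p = 4.05e-05, again with no overlap. Receptors and antagonists of the system changed little or did not pass. IL1R1 had a difference of -0.12 ± 0.06, adjusted p = 0.239, its accessory chain IL1RAP 0.14 ± 0.13, adjusted p = 0.519, and the receptor antagonist IL1RN, which blocks the receptor, -0.15 ± 0.10, adjusted p = 0.371. IL18, another ligand of the family, had 0.26 ± 0.16, adjusted p = 0.313. SIGIRR, a receptor that dampens the pathway, fell (-0.31 ± 0.08, adjusted p = 0.031), and this call was lost without No CM replicates 1 or 3 or Cont CM replicates 2 or 3 (adjusted p 0.0562 to 0.108). Of the 9 tested members of the interleukin-1 family 2 rose and 1 fell, with a median log2 difference of 0.14, against 0.00 over all tested genes, and the fall was lost with the trend removed as well.

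Other secreted cytokines moved in both directions. Of 25 tested cytokines and chemokines 10 rose and 4 fell (median 0.10), where 7.77% and 8.56% of all genes did. Without No CM replicate 3 the counts were 6 and 2, and without Cont CM replicates 2 or 3 the second was 2 as well. TNFSF15, a TNF family ligand that acts on lymphocytes and endothelium, stood at 23.4, 31.1 and 25.6 FPKM in No CM and 74.8, 44.9 and 50.9 in Cont CM (1.05 ± 0.17, adjusted p = 0.00411). IL24, a cytokine of the interleukin-10 family, stood at 3.72, 3.67 and 4.33 FPKM in No CM and 8.59, 8.43 and 7.99 in Cont CM (1.01 ± 0.08, adjusted p = 0.00013). The gap was wide and even for IL24, while TNFSF15 was highest in Cont CM replicate 1. CSF2, which encodes the growth factor GM-CSF, rose from 46.8, 48.0 and 48.1 to 94.6, 73.9 and 78.2 FPKM (0.77 ± 0.09, adjusted p = 0.00105), and IL11, a cytokine of the interleukin-6 family, had a difference of 0.60 ± 0.11, adjusted p = 0.00786. CXCL8, a neutrophil chemokine with levels of 162, 161 and 147 FPKM in No CM and 237, 212 and 214 in Cont CM, rose by 0.50 ± 0.07, adjusted p = 0.00192.

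IL6 itself had levels of 33.5, 38.9 and 36.7 FPKM in No CM and 98.5, 52.3 and 53.6 in Cont CM. Cont CM replicate 1 stood far above the other 2, which lay above the No CM libraries by a smaller margin. The call (0.83 ± 0.20, adjusted p = 0.0247) was lost without No CM replicates 1, 2 or 3 (adjusted p 0.0528 to 0.0748). The 4 that fell included CX3CL1, a membrane-bound chemokine, at 5.31, 5.30 and 5.11 FPKM in No CM and 2.28, 2.17 and 2.37 in Cont CM (-1.05 ± 0.05, adjusted p = 1.65e-05), and CSF1, the growth factor of macrophages, at 148, 155 and 155 FPKM in No CM and 94.1, 80.0 and 90.1 in Cont CM (-0.79 ± 0.06, adjusted p = 0.000105). Both had tight groups far apart. TNFSF10, which encodes the death ligand TRAIL (-0.40 ± 0.11, adjusted p = 0.032), and the interferon-induced chemokine CXCL11 (-0.46 ± 0.13, adjusted p = 0.0375) were called lower as well. The TNFSF10 call was lost without No CM replicates 1 or 3 or Cont CM replicates 1, 2 or 3 (adjusted p 0.0513 to 0.103), and the CXCL11 call without No CM replicates 1, 2 or 3 or Cont CM replicates 1, 2 or 3 (adjusted p 0.065 to 0.0998).

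The NF-kB list held 5 higher and 3 lower of 23 tested (median 0.10). Its subunits did not pass. RELA had a log2 difference of 0.12 ± 0.04, adjusted p = 0.0842, and NFKB1 -0.05 ± 0.04, adjusted p = 0.49. Among its inhibitors, TNFAIP3, the deubiquitinase A20, stood at 3.58, 4.63 and 3.95 FPKM in No CM and 7.27, 6.19 and 5.79 in Cont CM and rose by 0.60 ± 0.10, adjusted p = 0.00408, and the deubiquitinase CYLD rose by 0.50 ± 0.05, adjusted p = 0.000438. NFKBIA, the first inhibitor to be induced by the pathway, had a difference of -0.01 ± 0.10 with means of 82.6 and 82.6 FPKM. Of the targets, PTGS2, the inducible cyclooxygenase, stood at 0.688, 0.648 and 0.918 FPKM in No CM and 1.75, 1.34 and 1.36 in Cont CM (0.67 ± 0.11, adjusted p = 0.00576). IER3, an early response gene, had 621, 719.7 and 651 FPKM in No CM and 1351, 893 and 948 in Cont CM, a difference of 0.66 ± 0.14, adjusted p = 0.0138 that was lost without No CM replicate 3 (adjusted p = 0.051). TNFAIP2 and IRF1, also targets, fell, with differences of -0.57 and -0.34, so that 3 of the 10 targets rose and 2 fell. BCL3, a relative of the inhibitors and listed with them, had a difference of -0.41 and was the 1 of the 8 that fell. With the trend removed the rises in the whole list were 8.

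**Figure D2:**
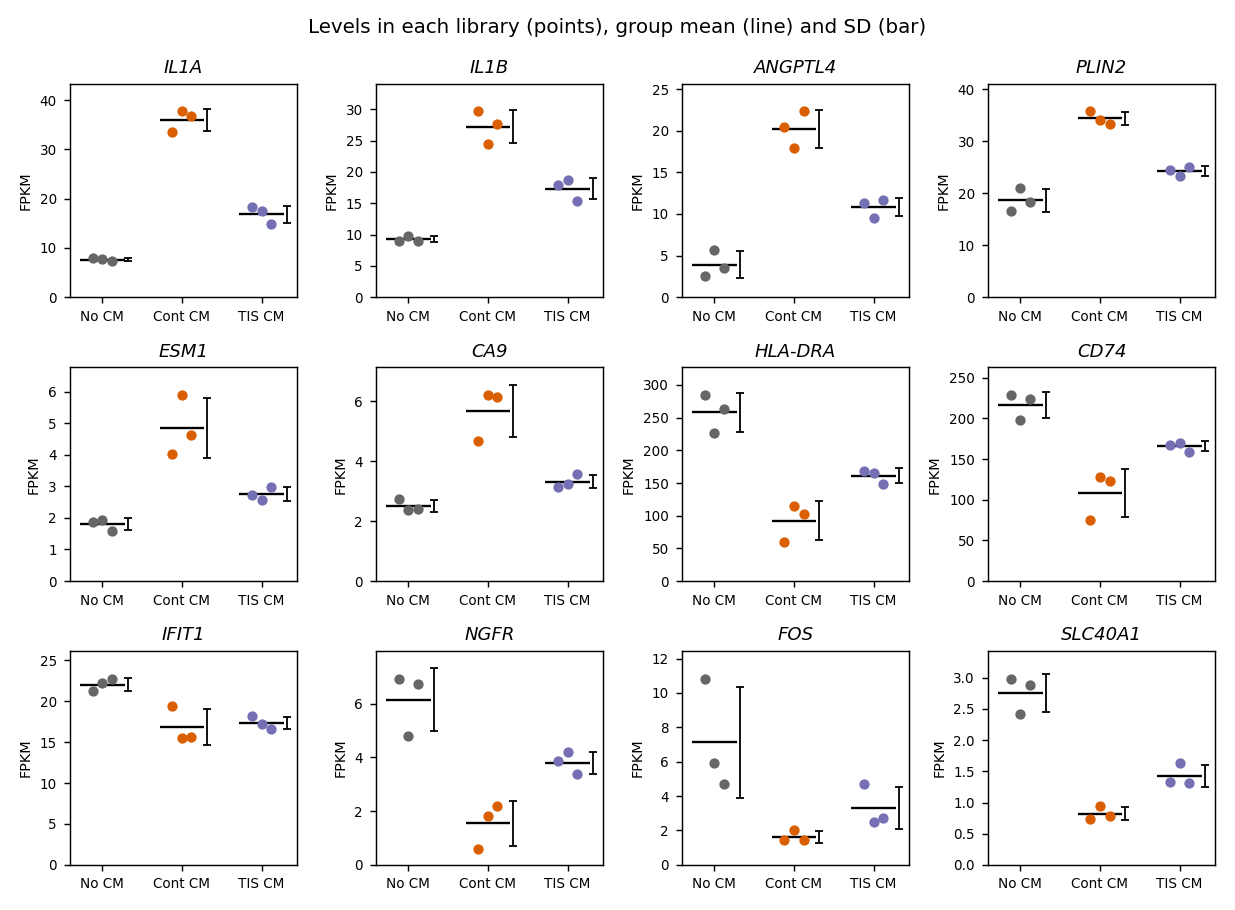
Levels in FPKM of 12 leading genes in each library, with No CM, Cont CM and TIS CM along the axis, points for the 3 libraries of a group, a line for the mean and a bar for the SD. In all 12 panels the Cont CM points lie on one side of all No CM points, upward for IL1A through CA9 and downward for HLA-DRA through SLC40A1.

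ANGPTL4 (ENSG00000167772, chromosome 19, 8363289 to 8374373) had the largest rise of all tested genes on the log2 scale. It encodes a secreted protein that inhibits lipoprotein lipase and is known as a target of PPAR receptors, glucocorticoids and hypoxia. Its levels were 2.55, 5.69 and 3.47 FPKM in No CM and 20.5, 17.9 and 22.3 in Cont CM, a difference of 2.29 ± 0.22, adjusted p = 0.000358. The No CM libraries differed among themselves by more than 2-fold, yet the lowest Cont CM library was more than 3-fold above the highest of them. Of 15 tested genes of PPAR signalling and fatty acid oxidation 7 rose and 1 fell (median 0.19), of 29 hypoxia genes 8 rose and 2 fell (median 0.11), and of 13 glucocorticoid-response genes 2 rose and 1 fell (median 0.05). Over all tested genes 7.77% rose and 8.56% fell. ANGPTL4 is itself a member of the PPAR and glucocorticoid lists, and of the angiogenesis list described below. The counts of the PPAR, hypoxia and glucocorticoid lists were not tested against each other. In the glucocorticoid list, the 2 were ANGPTL4 and DUSP1, and the receptor gene NR3C1 had a difference of 0.02 ± 0.05, adjusted p = 0.829 and the classic target FKBP5 -0.09 ± 0.07, adjusted p = 0.421.

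Among the PPAR list, PLIN2, which coats lipid droplets, stood at 16.6, 21.0 and 18.3 FPKM in No CM and 35.7, 34.1 and 33.4 in Cont CM (0.87 ± 0.08, adjusted p = 0.000236). PDK4, a kinase that turns off pyruvate oxidation, stood at 1.56, 2.14 and 1.84 FPKM in No CM and 2.80, 3.94 and 3.92 in Cont CM (0.78 ± 0.14, adjusted p = 0.00603). Both were higher in every Cont CM library. CPT1A, which passes fatty acids into mitochondria, and SLC25A20, the carnitine carrier that follows it, rose by 0.30 ± 0.05 and 0.43 ± 0.07. Of the receptors, PPARG rose by 0.25 ± 0.05, adjusted p = 0.0126, a call lost without No CM replicate 3 (adjusted p = 0.0542), while PPARD had 0.15 ± 0.05, adjusted p = 0.0626 and PPARA -0.02 ± 0.06, adjusted p = 0.862. RXRA, their partner, fell (-0.18 ± 0.04, adjusted p = 0.0231), a call lost without No CM replicates 1, 2 or 3 or Cont CM replicate 2 (adjusted p 0.0524 to 0.0862) and with the trend removed. The falls in the PPAR list were thus as low as 0 in the omissions, and 0 with the trend removed.

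Of 17 tested genes of fatty acid synthesis 5 fell and 0 rose (median -0.12), and the rises were 1 without No CM replicate 1 and 2 with the trend removed. SREBF1, the transcription factor that drives the pathway, stood at 13.8, 12.8 and 13.9 FPKM in No CM and 7.77, 7.01 and 6.82 in Cont CM. Its Cont CM libraries lay close together and well under No CM, a difference of -0.86 ± 0.06, adjusted p = 7.87e-05. SCD, the desaturase that makes oleate, stood at 27.1, 24.8 and 26.9 FPKM in No CM and 17.1, 16.9 and 17.6 in Cont CM (-0.60 ± 0.04, adjusted p = 0.000105), and the desaturases FADS2 and FADS1 fell (-0.32 ± 0.04) and -0.25 ± 0.04. FASN, the synthase itself, had a difference of -0.23 ± 0.07, adjusted p = 0.0477, a call lost without No CM replicates 1, 2 or 3 or Cont CM replicates 2 or 3 (adjusted p 0.0859 to 0.137). ACACA and ACLY, which supply its substrates, had differences of -0.02 ± 0.06, adjusted p = 0.827 and 0.07 ± 0.03, adjusted p = 0.116.

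Few genes of cholesterol synthesis passed. Of 23 tested genes 1 rose and 2 fell (median -0.01), and without Cont CM replicate 1 the second count was 4, without No CM replicates 1 or 3 or Cont CM replicate 3 it was 1. Removal of the trend gave 3 rises and 4 falls. The regulator SREBF2 had a difference of -0.03 ± 0.10, adjusted p = 0.867. The sterol sensors INSIG1 and INSIG2 moved oppositely, INSIG2 by 0.27 ± 0.05, adjusted p = 0.00912 and INSIG1 (-0.20 ± 0.05, adjusted p = 0.0267), the latter lost without No CM replicates 1 or 3 or Cont CM replicate 3 (adjusted p 0.068 to 0.0935). Of 7 targets of the oxysterol receptor LXR, SREBF1 and MYLIP (-0.35 ± 0.06, adjusted p = 0.0076), a ubiquitin ligase, fell and none rose, and ABCA1 had -0.34 ± 0.13, adjusted p = 0.122. Here 1 rose with the trend removed.

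In the hypoxia list, CA9, the cell-surface carbonic anhydrase that acidifies the medium, stood at 2.75, 2.36 and 2.41 FPKM in No CM and 4.66, 6.20 and 6.15 in Cont CM (1.03 ± 0.10, adjusted p = 0.000517). LOX, which crosslinks collagen, stood at 14.3, 14.4 and 13.5 FPKM in No CM and 22.2, 24.3 and 21.4 in Cont CM (0.67 ± 0.05, adjusted p = 0.000109), and VEGFA, the main angiogenic ligand, at 14.6, 13.5 and 11.7 FPKM in No CM and 17.1, 21.5 and 19.9 in Cont CM (0.54 ± 0.09, adjusted p = 0.00542). Each of these was higher in all 3 Cont CM libraries. ADM, which encodes the vasodilator adrenomedullin, rose by 0.45 ± 0.10, adjusted p = 0.017, a call lost without No CM replicates 1 or 3 (adjusted p 0.0539 to 0.0564). DDIT4, an inhibitor of mTORC1, fell from 73.7, 66.3 and 76.8 to 37.4, 46.1 and 48.4 FPKM (-0.72 ± 0.10, adjusted p = 0.0022). CA12, another surface carbonic anhydrase, fell (-0.59 ± 0.15, adjusted p = 0.0294), a call lost without No CM replicates 1 or 3 (adjusted p 0.0843 to 0.0912), so that the count of falls was 1 without either library. The oxygen-regulated subunit HIF1A had a difference of -0.10 ± 0.08, adjusted p = 0.441. Targets such as NDRG1 (0.28 ± 0.08, adjusted p = 0.0508), BNIP3 (0.19 ± 0.07, adjusted p = 0.0905) and the glucose carrier SLC2A1 (-0.02 ± 0.04, adjusted p = 0.718) did not pass.

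Glycolysis was close to the background, with 2 higher and 3 lower of 21 (median 0.01). These calls were fragile. Without No CM replicates 1 or 3 they were 0 and 1, without No CM replicate 2 the falls were 1, and without Cont CM replicate 2, and likewise on removal of the trend, they were 1 and 1. PKM, pyruvate kinase, fell (-0.20 ± 0.04, adjusted p = 0.00847), and LDHA, lactate dehydrogenase, had 0.06 ± 0.04, adjusted p = 0.4. Of 8 genes of pH regulation CA9 and the bicarbonate carrier SLC4A7 (0.40 ± 0.06, adjusted p = 0.00273) rose and CA12 fell (median -0.02), and the falls were 0 without No CM replicates 1 or 3, 3 without Cont CM replicate 1 and 2 without Cont CM replicate 3.

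**Figure D3:**
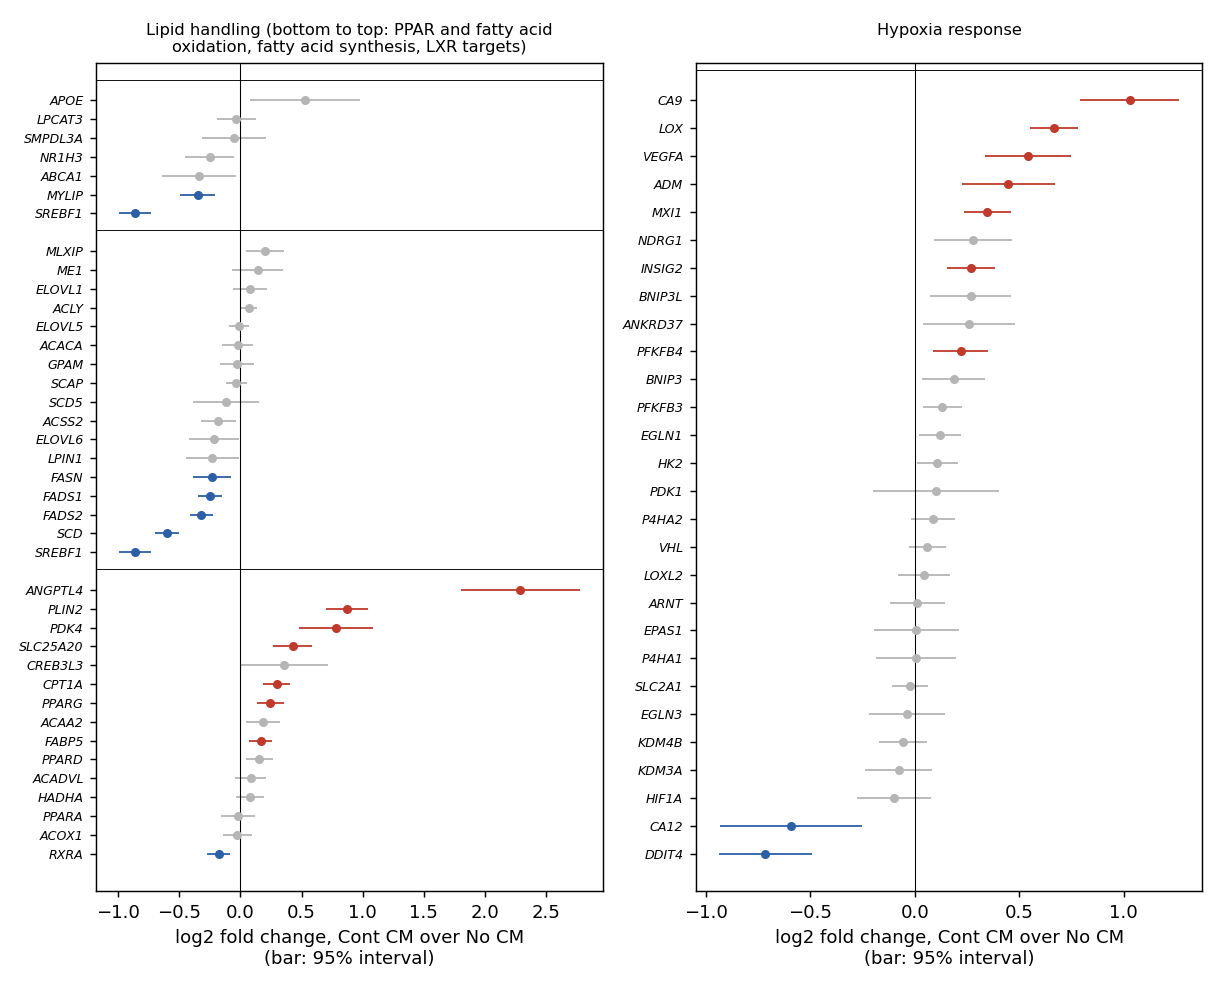
Log2 differences, Cont CM minus No CM, with 95% intervals from limma for tested genes of lipid handling and of the hypoxia response, in which red marks genes called higher, blue genes called lower and grey genes that did not pass. ANGPTL4, PLIN2 and PDK4 lie to the right and SREBF1 and SCD to the left, and in the hypoxia list CA9, LOX and VEGFA lie to the right while HIF1A spans 0.

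Among angiogenesis genes 6 of 13 rose and 2 fell (median 0.01), and the 6 include ANGPTL4, already counted in the lists above. ESM1, an endothelial proteoglycan also made by tumours, stood at 1.88, 1.94 and 1.60 FPKM in No CM and 4.03, 5.89 and 4.63 in Cont CM (1.20 ± 0.12, adjusted p = 0.000489), and FLI1, an ETS transcription factor of endothelial and blood cells, at 0.606, 0.611 and 0.588 FPKM in No CM and 1.93, 1.88 and 1.64 in Cont CM (1.07 ± 0.10, adjusted p = 0.000278). The FLI1 level stayed near 2 FPKM at most. VEGFC, the lymphatic ligand, stood at 36.7, 43.5 and 40.1 FPKM in No CM and 68.6, 49.1 and 51.2 in Cont CM (0.47 ± 0.12, adjusted p = 0.0284), a call lost without No CM replicates 1 or 3 (adjusted p 0.0822 to 0.0886). The 2 that fell, ANGPT1 (-0.41 ± 0.09, adjusted p = 0.0145) and PGF (-0.35 ± 0.10, adjusted p = 0.038), lost their calls too, ANGPT1 without No CM replicates 1 or 2 (adjusted p 0.0509 to 0.052) and PGF without No CM replicates 1, 2 or 3 or Cont CM replicates 1, 2 or 3 (adjusted p 0.0502 to 0.0981). The fall count was then 0 without No CM replicates 1 or 2 and 1 without No CM replicate 3 or Cont CM replicates 1 or 2. F3, which encodes tissue factor and starts clotting, stood at 248, 297 and 243 FPKM in No CM and 652, 432 and 423 in Cont CM (0.91 ± 0.15, adjusted p = 0.00504).

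Of 21 tested genes of TGF-beta signalling 9 rose and 2 fell (median 0.20). The number that rose was 4 without No CM replicate 3 and 5 without No CM replicate 2 or Cont CM replicates 2 or 3, and without No CM replicate 3, and on removal of the trend, the number that fell was 1. SMURF2, a ligase that removes the receptors, had 46.1, 44.4 and 42.9 FPKM in No CM and 63.6, 63.3 and 62.6 in Cont CM (0.50 ± 0.04, adjusted p = 0.000105). Groups were tight and apart for SMURF2. TGFBI and TAGLN, a matrix protein and a smooth muscle protein that TGF-beta induces, had less even libraries. TGFBI stood at 17.7, 15.2 and 15.7 FPKM in No CM and 17.9, 30.5 and 30.1 in Cont CM (0.64 ± 0.18, adjusted p = 0.0382), with Cont CM replicate 1 close to the No CM level, and TAGLN at 1.48, 2.27 and 1.87 FPKM in No CM and 5.70, 2.56 and 3.12 in Cont CM (0.80 ± 0.23, adjusted p = 0.0479), with that same library far above the rest. The TGFBI call was lost without No CM replicates 1, 2 or 3 or Cont CM replicates 2 or 3 (adjusted p 0.065 to 0.111), and the TAGLN call without No CM replicates 1, 2 or 3 or Cont CM replicate 3 (adjusted p 0.0627 to 0.138). The ligands and receptors TGFB1 (-0.19 ± 0.06, adjusted p = 0.0528), TGFB2 (0.23 ± 0.11, adjusted p = 0.201), TGFBR1 (-0.09 ± 0.08, adjusted p = 0.456) and TGFBR2 (0.01 ± 0.07, adjusted p = 0.949) did not pass. Of the activin subunits, INHBB fell (-0.64 ± 0.10, adjusted p = 0.00335) and INHBA rose by 0.46 ± 0.10, adjusted p = 0.0178, the latter lost without No CM replicates 2 or 3 or Cont CM replicates 2 or 3 (adjusted p 0.0537 to 0.0654).

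In BMP signalling, the related branch, the counts lay the other way. Of 12 tested genes of BMP signalling 6 fell and 1 rose (median -0.33), where 8.56% of all genes fell. ID1, an inhibitor of bHLH factors and a direct SMAD target, stood at 114, 109 and 114 FPKM in No CM and 63.8, 55.0 and 52.4 in Cont CM (-0.98 ± 0.07, adjusted p = 0.000105), and ID3 at 18.1, 17.0 and 16.8 FPKM in No CM and 8.42, 9.42 and 9.88 in Cont CM (-0.87 ± 0.07, adjusted p = 0.000109). ATOH8, a bHLH factor induced by BMP, stood at 1.8, 1.66 and 1.74 FPKM in No CM and 0.469, 0.321 and 0.340 in Cont CM (-1.35 ± 0.10, adjusted p = 0.000105). All 3 had groups that were tight and well apart. SMAD6, the feedback inhibitor, fell (-0.75 ± 0.09, adjusted p = 0.00151). The ligand gene BMP4 fell from 132, 136 and 133 to 92.0, 76.4 and 82.0 FPKM (-0.68 ± 0.06, adjusted p = 0.000246), and NOG, which encodes the BMP-binding antagonist noggin, rose from 36.7, 42.0 and 40.2 to 69.5, 50.3 and 53.9 (0.53 ± 0.11, adjusted p = 0.014). The receptors BMPR1A (0.07 ± 0.04, adjusted p = 0.294) and BMPR2 (-0.06 ± 0.05, adjusted p = 0.458) did not pass.

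Of 31 genes of the YAP/TAZ programme 9 rose and 3 fell (median 0.06), and without No CM replicates 1 or 3 or Cont CM replicate 2 the falls were 1. CYR61, a matricellular protein, stood at 538, 573 and 566 FPKM in No CM and 897, 705 and 753 in Cont CM (0.48 ± 0.08, adjusted p = 0.00542), and ANKRD1, a muscle ankyrin protein, at 226, 229 and 230.1 FPKM in No CM and 379, 296 and 299.5 in Cont CM (0.50 ± 0.09, adjusted p = 0.00603). Both were highest in Cont CM replicate 1. DLC1, a RhoGAP, and the cofactor VGLL3 had more even gaps, with differences of 0.49 ± 0.04, adjusted p = 0.000105 and 0.76 ± 0.08, adjusted p = 0.000744. AXL (0.05 ± 0.04, adjusted p = 0.348), AMOTL2 (0.02 ± 0.04, adjusted p = 0.813) and LATS2 (-0.01 ± 0.08, adjusted p = 0.929), also standard targets, did not pass. Among 24 genes of the actin cytoskeleton 9 rose and 1 fell (median 0.08). NEXN, an actin-binding protein, stood at 8.98, 10.1 and 8.88 FPKM in No CM and 17.1, 15.5 and 14.9 in Cont CM (0.73 ± 0.07, adjusted p = 0.00035), CALD1, caldesmon, at 20.6, 21.7 and 19.9 FPKM in No CM and 30.4, 28 and 27.3 in Cont CM (0.45 ± 0.05, adjusted p = 0.000676), and FHL2 rose by 0.53 ± 0.06, adjusted p = 0.00103. TAGLN3 rose by 0.96 ± 0.12, adjusted p = 0.00146 and its relative TAGLN2 fell (-0.17 ± 0.03, adjusted p = 0.00913). TAGLN2 did not pass with the trend removed (adjusted p = 0.0762), which left 0 falls, and without Cont CM replicate 1 there were 3. The actins ACTB (0.04 ± 0.06, adjusted p = 0.684) and ACTA2 (-0.01 ± 0.11, adjusted p = 0.971) and the myosin MYL9 (0.02 ± 0.09, adjusted p = 0.891) did not pass.

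Matrix genes moved in both directions. Of 30 tested collagens, matrix proteins and crosslinking enzymes 7 rose and 7 fell (median 0.02). LOX, the lysyl hydroxylase PLOD2 (32.1, 32.5 and 31.1 FPKM in No CM and 50.1, 46.6 and 45.3 in Cont CM, 0.56 ± 0.04, adjusted p = 0.000105), the collagen COL8A1 (19.6, 19.5 and 19.1 FPKM in No CM and 31.9, 28.9 and 28.8 in Cont CM, 0.61 ± 0.04, adjusted p = 0.000105) and tenascin TNC (0.45 ± 0.05, adjusted p = 0.000519) rose. COL17A1, a hemidesmosomal collagen, rose by 0.55 ± 0.08, adjusted p = 0.00309. COL1A2 (2.45, 2.40 and 2.75 FPKM in No CM and 1.2, 1.00 and 1.31 in Cont CM, -0.86 ± 0.09, adjusted p = 0.000449), COL18A1, COL6A1 and COL5A1 fell, the last 3 with differences of -0.57, -0.57 and -0.56. Fibrillar and basement membrane collagens such as COL1A1 (-0.03 ± 0.09, adjusted p = 0.875) and COL4A1 (-0.13 ± 0.06, adjusted p = 0.2) did not pass.

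Laminins and integrins held 6 higher and 1 lower of 18 (median 0.06), and without Cont CM replicate 1 the number lower was 3. LAMB3, a laminin beta chain of epithelial basement membranes, stood at 148, 160.4 and 159 FPKM in No CM and 208, 184 and 185 in Cont CM and rose by 0.30 ± 0.06, adjusted p = 0.0102, while its alpha chain partner LAMA3 had -0.23 ± 0.14, adjusted p = 0.292. LAMA5, another alpha chain, fell (-0.42 ± 0.05, adjusted p = 0.00162). Of the integrins ITGA5, the fibronectin receptor chain, rose by 0.25 ± 0.05, adjusted p = 0.0129, and ITGB1, the common beta chain, had 0.05 ± 0.08, adjusted p = 0.742.

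Among 24 matrix proteases and their inhibitors 4 rose and 8 fell (median -0.13), and with the trend removed 5 fell. ADAMTS6, a secreted metalloprotease, stood at 0.843, 0.774 and 0.945 FPKM in No CM and 2.48, 2.95 and 2.77 in Cont CM (1.26 ± 0.08, adjusted p = 7.87e-05), and MMP1, the interstitial collagenase, at 307, 266 and 292 FPKM in No CM and 343, 698 and 553 in Cont CM (0.82 ± 0.21, adjusted p = 0.0284). Cont CM replicate 1 was low for MMP1, and that call was lost without No CM replicates 1, 2 or 3 or Cont CM replicates 2 or 3 (adjusted p 0.0591 to 0.084). ADAMTS15, a protease of proteoglycans, stood at 26.2, 26.2 and 27.4 FPKM in No CM and 14.7, 13.4 and 14.6 in Cont CM (-0.88 ± 0.05, adjusted p = 2e-05), MMP15, a membrane-type metalloprotease, at 5.40, 4.37 and 4.81 FPKM in No CM and 2.09, 2.30 and 2.56 in Cont CM (-0.93 ± 0.09, adjusted p = 0.000379), and HTRA3, a secreted serine protease, at 2.63, 2.62 and 2.56 FPKM in No CM and 0.867, 1.34 and 1.40 in Cont CM (-0.88 ± 0.12, adjusted p = 0.00187). All 3 were lower in each Cont CM library. TIMP3, a matrix-bound inhibitor of these proteases, fell (-0.49 ± 0.09, adjusted p = 0.00905), and MMP14 had -0.15 ± 0.10, adjusted p = 0.382. In the plasminogen system 3 of 9 genes rose and 1 fell (median 0.12), and the rises included PLAT and PLAU, which encode the activators tPA and uPA. PLAT stood at 84.9, 89.7 and 94.5 FPKM in No CM and 188, 118 and 141 in Cont CM (0.70 ± 0.14, adjusted p = 0.0105) and PLAU at 167, 189 and 170.4 FPKM in No CM and 209, 216 and 215 in Cont CM (0.28 ± 0.05, adjusted p = 0.00736). The uPA receptor PLAUR had 0.11 ± 0.09, adjusted p = 0.447, and without Cont CM replicate 1 the count of rises was 5 in place of 3. HAS2, the main hyaluronan synthase, stood at 1.14, 1.12 and 1.13 FPKM in No CM and 3.28, 3.51 and 2.43 in Cont CM (1.12 ± 0.11, adjusted p = 0.000438), and CEMIP, which takes part in hyaluronan breakdown, at 34.3, 27.2 and 33.2 FPKM in No CM and 17.9, 18.2 and 20.7 in Cont CM (-0.72 ± 0.10, adjusted p = 0.00226).

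**Figure D4:**
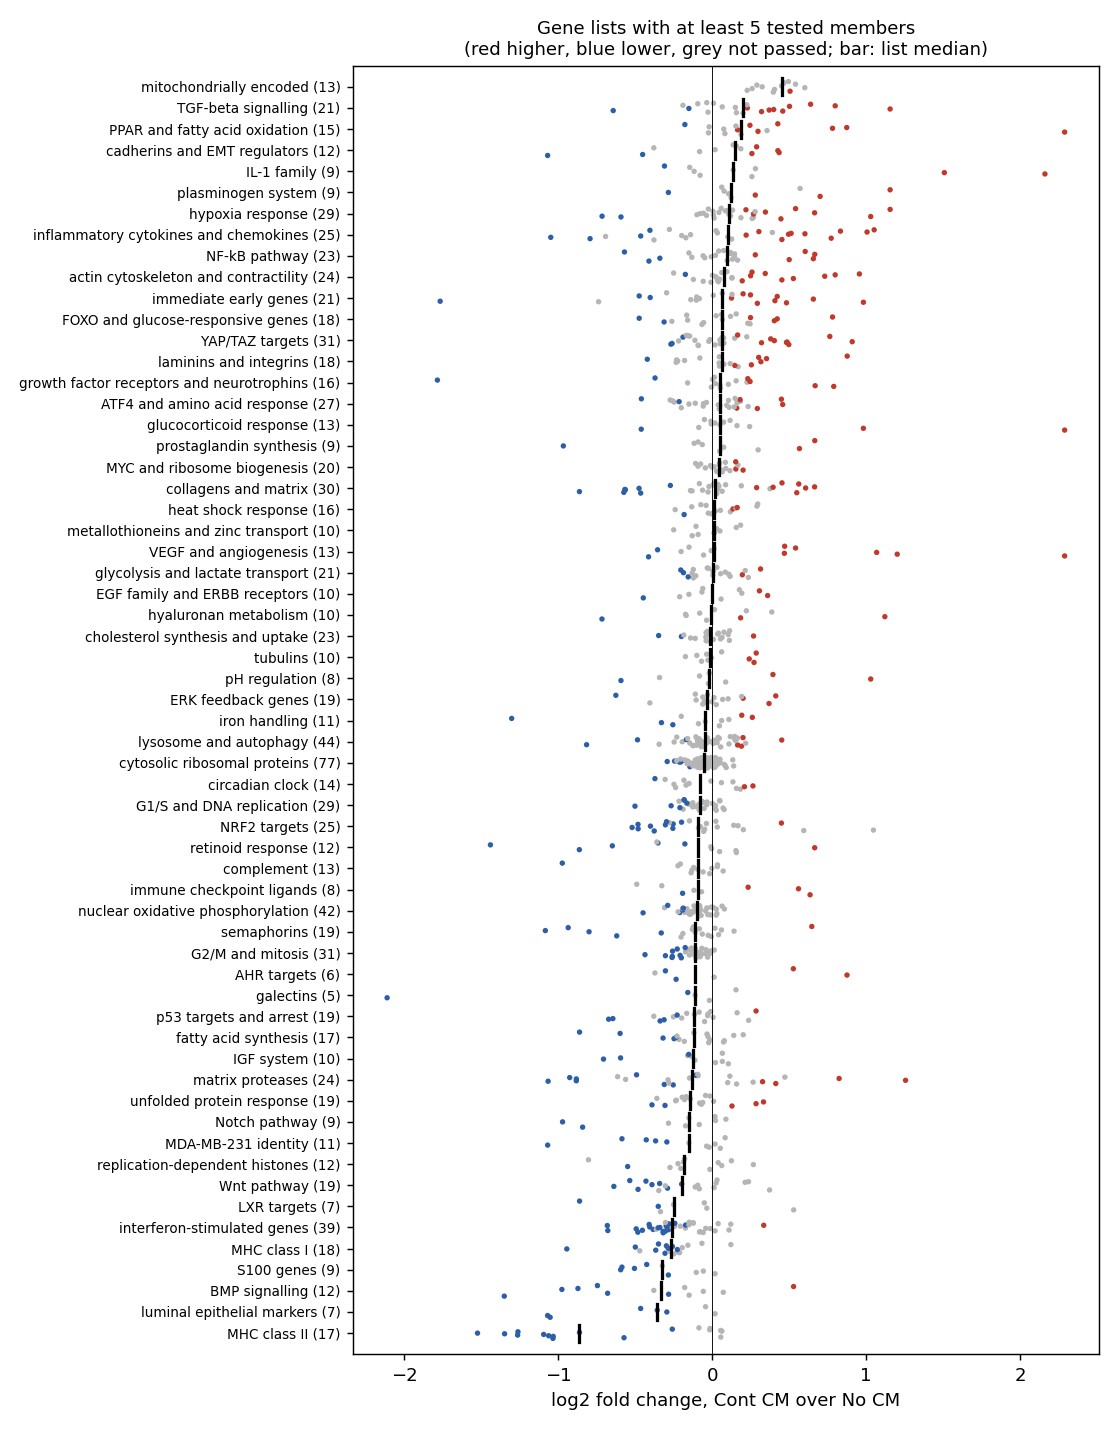
Log2 differences, Cont CM minus No CM, of the tested members of every list with at least 5 of them, ordered by list median (black bar), with the number tested in brackets, red for genes called higher, blue for lower and grey for not passed. MHC class II has the lowest median at -0.86 and the mitochondrially encoded genes the highest at 0.45, and most list medians lie near the 0.00 of all tested genes.

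Genes of antigen presentation by MHC class II fell together. Class II molecules present peptides to helper T cells, their genes lie together on chromosome 6, and they are switched on by the coactivator CIITA acting through RFX and NF-Y proteins at a shared X and Y box promoter. All 8 tested chain genes fell, of 17 tested members 11 fell and 0 rose, and the list median of -0.86 was the lowest of all lists. HLA-DRA (ENSG00000204287, chromosome 6, 32439842 to 32445046), the alpha chain of HLA-DR, stood at 284, 227 and 263 FPKM in No CM and 59.1, 115 and 103 in Cont CM. Cont CM replicate 1 was lowest, and no Cont CM library reached the No CM level. Its difference was -1.52 ± 0.21, adjusted p = 0.00228. HLA-DPB1 stood at 27.2, 22.2 and 26.0 FPKM in No CM and 6.51, 11.6 and 11.5 in Cont CM (-1.35 ± 0.18, adjusted p = 0.00215) and HLA-DPA1 at 31.0, 26.2 and 30.1 FPKM in No CM and 10.0, 15.8 and 15 in Cont CM (-1.09 ± 0.14, adjusted p = 0.00192).

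The genes that load class II followed. HLA-DOA, a chain of the loading regulator HLA-DO, fell (-1.26 ± 0.11, adjusted p = 0.000222), and so did HLA-DMA (-1.03 ± 0.12, adjusted p = 0.00117) and HLA-DMB (-1.06 ± 0.13, adjusted p = 0.0012), both chains of the loading catalyst HLA-DM. CD74, the invariant chain, stood at 228, 199 and 223 FPKM in No CM and 74.6, 128 and 123 in Cont CM (-1.03 ± 0.17, adjusted p = 0.00516). HLA-DRB1 and HLA-DRB5 are near-identical copies whose reads cannot be separated with certainty. HLA-DRB5 fell (-1.26 ± 0.17, adjusted p = 0.00208) and HLA-DRB1 (-0.86 ± 0.25, adjusted p = 0.043), the latter lost without No CM replicates 1, 2 or 3 or Cont CM replicates 1 or 2 (adjusted p 0.0581 to 0.138). Of the regulators CIITA itself, at 2.07, 1.81 and 1.85 FPKM in No CM and 0.936, 1.38 and 1.08 in Cont CM, fell (-0.57 ± 0.10, adjusted p = 0.00757), and RFX5, the DNA-binding subunit of RFX (-0.26 ± 0.04, adjusted p = 0.00219). RFXANK (-0.01 ± 0.07, adjusted p = 0.92), RFXAP (-0.09 ± 0.11, adjusted p = 0.654) and NFYA (0.06 ± 0.06, adjusted p = 0.527) did not pass.

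The promoters of class II genes are shown because 9 genes of this set (the 8 chains and CD74) moved together and share a promoter architecture. RefSeq promoter windows (build GRCh38.p14, 250 bases before to 50 after the start) were matched by symbol for 8 of the 9. HLA-DRA had no entry. The windows run 5′ to 3′ on the gene's strand, and capitals mark ATTGG, the core of the Y box, and ACTGATGAT, an end of the X box, each searched on both strands. The X box letters were chosen with these sequences in view.
HLA-DRB1 promoter, chr6:32589799-32590098, minus strand: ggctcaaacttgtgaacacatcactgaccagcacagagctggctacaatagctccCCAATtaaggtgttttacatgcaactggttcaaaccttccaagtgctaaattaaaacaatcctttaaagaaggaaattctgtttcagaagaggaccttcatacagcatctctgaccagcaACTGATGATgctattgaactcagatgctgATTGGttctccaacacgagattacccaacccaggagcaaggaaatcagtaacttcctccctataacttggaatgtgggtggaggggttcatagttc
HLA-DMA promoter, chr6:32953048-32953347, minus strand: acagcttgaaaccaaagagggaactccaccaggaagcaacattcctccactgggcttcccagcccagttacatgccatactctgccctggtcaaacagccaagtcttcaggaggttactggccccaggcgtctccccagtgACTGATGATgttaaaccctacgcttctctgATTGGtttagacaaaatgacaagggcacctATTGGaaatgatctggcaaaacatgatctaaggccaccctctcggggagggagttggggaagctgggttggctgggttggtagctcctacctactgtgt
HLA-DMB promoter, chr6:32940979-32941278, minus strand: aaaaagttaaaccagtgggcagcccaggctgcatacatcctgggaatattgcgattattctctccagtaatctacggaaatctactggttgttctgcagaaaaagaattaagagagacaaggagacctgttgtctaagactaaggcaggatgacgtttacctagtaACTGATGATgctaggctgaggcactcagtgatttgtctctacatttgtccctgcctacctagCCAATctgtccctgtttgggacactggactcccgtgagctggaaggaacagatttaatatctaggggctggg
CD74 promoter, chr5:150412861-150413160, minus strand: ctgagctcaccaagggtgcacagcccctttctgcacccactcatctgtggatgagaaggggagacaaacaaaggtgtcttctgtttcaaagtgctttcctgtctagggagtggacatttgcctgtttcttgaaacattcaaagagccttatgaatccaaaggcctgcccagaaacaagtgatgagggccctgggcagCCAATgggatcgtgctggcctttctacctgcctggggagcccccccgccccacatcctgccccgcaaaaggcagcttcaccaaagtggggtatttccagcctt

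ACTGATGAT was found in 4 of the 8 windows (HLA-DRB1, HLA-DRB5, HLA-DMA and HLA-DMB) and in 54 of all 27305 RefSeq windows (0.198%). Because these letters were chosen with the windows in view, the contrast is not a test of enrichment. HLA-DRB1 and HLA-DRB5 are also near-identical copies. ATTGG was found in 7 of the 8 and in 35.7% of all windows, so that motif alone is common. In the HLA-DRB1 and HLA-DMA windows above, ATTGG occurs at more than one place, counting both strands, and CD74 has the Y box letters without this X box. The matches are a description of the letters and not of bound sites.

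Class I genes present peptides to cytotoxic T cells. Of 18 tested 9 fell and 0 rose (median -0.27), and without No CM replicate 3 the falls were 5, and without Cont CM replicate 1 there was 1 rise. HLA-F, a nonclassical chain, stood at 2.94, 2.98 and 3.07 FPKM in No CM and 0.935, 1.5 and 1.59 in Cont CM (-0.94 ± 0.13, adjusted p = 0.00208), and HLA-C at 91.8, 85.1 and 89.8 FPKM in No CM and 60.1, 72.1 and 75.2 in Cont CM (-0.37 ± 0.07, adjusted p = 0.0118), which did not pass with the trend removed (adjusted p = 0.0929). PSMB10, an immunoproteasome subunit, fell (-0.50 ± 0.05, adjusted p = 0.000606), and TAPBP, the loading chaperone tapasin (-0.35 ± 0.04, adjusted p = 0.0011). HLA-B, at 240.4, 216 and 232 FPKM in No CM and 120.0, 193 and 195 in Cont CM, had a larger difference than HLA-C but did not pass (-0.47 ± 0.16, adjusted p = 0.0809), and Cont CM replicate 1 lay far below the other 2. The shared light chain B2M (-0.25 ± 0.08, adjusted p = 0.0723) and the peptide transporter TAP1 (-0.16 ± 0.05, adjusted p = 0.0735) did not pass. CALR, a chaperone of both loading and the endoplasmic reticulum, fell (-0.31 ± 0.09, adjusted p = 0.0458), a call lost without No CM replicates 1, 2 or 3 (adjusted p 0.0752 to 0.138).

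Interferon-stimulated genes fell by small amounts. Of 39 tested 19 fell and 1 rose (median -0.26). Without No CM replicate 3 there were 8 falls. OASL, a sensor of double-stranded RNA related to the OAS enzymes, stood at 10.8, 11 and 12.4 FPKM in No CM and 7.21, 6.57 and 6.91 in Cont CM (-0.68 ± 0.06, adjusted p = 0.000227), IFI35 at 10.2, 11 and 10.5 FPKM in No CM and 6.05, 6.43 and 6.73 in Cont CM (-0.68 ± 0.06, adjusted p = 0.00017), and IFIT3, which binds foreign RNA with its relatives, at 65.4, 66.3 and 71.7 FPKM in No CM and 51.0, 46.4 and 46.6 in Cont CM (-0.49 ± 0.06, adjusted p = 0.00106). In each the groups were apart by more than their spread. DHX58 (-0.48 ± 0.11, adjusted p = 0.0193) and IFI44 (-0.45 ± 0.11, adjusted p = 0.0271) were called lower. DHX58 lost its call without No CM replicates 2 or 3 or Cont CM replicates 2 or 3 (adjusted p 0.0542 to 0.0654), and IFI44 without No CM replicates 1 or 3 or Cont CM replicate 2 (adjusted p 0.0532 to 0.0849). IRF1, at 8.09, 7.93 and 8.40 FPKM in No CM and 6.45, 5.82 and 6.75 in Cont CM, fell (-0.34 ± 0.06, adjusted p = 0.00647). IRF7, a factor that amplifies the response, had a difference of -0.26 ± 0.10, adjusted p = 0.109 and did not pass. IRF9 lay below the filter. PARP12 was the 1 that rose (0.34 ± 0.05, adjusted p = 0.00286). Beside these, CD274, which encodes the checkpoint ligand PD-L1 and is itself interferon-inducible, went up, as given below.

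Of the 19 that fell, 17 had a RefSeq window, and 11 of these held 2 copies of GAAA separated by any 2 bases, on either strand, which is the core of the interferon-stimulated response element. Of the 20 that did not fall 11 had a window and 8 held it, and 3.65% of all 27305 windows did. The element was thus present in most windows on both sides. The windows of IFIT3, ISG15 and BST2, which all fell (-0.49, -0.41 and -0.32), are shown as examples with the element in capitals. In each of the 3 it has 2 matches, and where these overlap the capitals run on. The call of ISG15 was lost without No CM replicate 3 (adjusted p = 0.0538), and that of BST2 without No CM replicates 1 or 3 (adjusted p 0.0843 to 0.0876).
IFIT3 promoter, chr10:89327747-89328046, plus strand: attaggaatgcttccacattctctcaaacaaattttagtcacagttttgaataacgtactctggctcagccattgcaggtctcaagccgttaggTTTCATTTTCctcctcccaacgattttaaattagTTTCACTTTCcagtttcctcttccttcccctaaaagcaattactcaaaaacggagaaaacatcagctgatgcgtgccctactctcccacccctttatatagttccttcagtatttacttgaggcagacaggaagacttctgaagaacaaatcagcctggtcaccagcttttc
ISG15 promoter, chr1:1013247-1013546, plus strand: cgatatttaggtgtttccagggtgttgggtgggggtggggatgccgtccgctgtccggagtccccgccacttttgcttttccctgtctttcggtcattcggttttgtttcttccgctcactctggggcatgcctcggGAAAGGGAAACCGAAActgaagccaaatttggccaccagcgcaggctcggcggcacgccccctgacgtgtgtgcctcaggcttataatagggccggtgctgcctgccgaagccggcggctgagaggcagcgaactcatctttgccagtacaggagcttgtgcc
BST2 promoter, chr19:17405581-17405880, minus strand: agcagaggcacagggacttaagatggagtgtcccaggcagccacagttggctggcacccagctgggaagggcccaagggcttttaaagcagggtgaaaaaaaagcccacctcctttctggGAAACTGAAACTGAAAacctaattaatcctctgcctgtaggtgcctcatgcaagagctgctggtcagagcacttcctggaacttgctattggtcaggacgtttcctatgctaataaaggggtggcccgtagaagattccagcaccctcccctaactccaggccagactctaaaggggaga

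**Figure D5:**
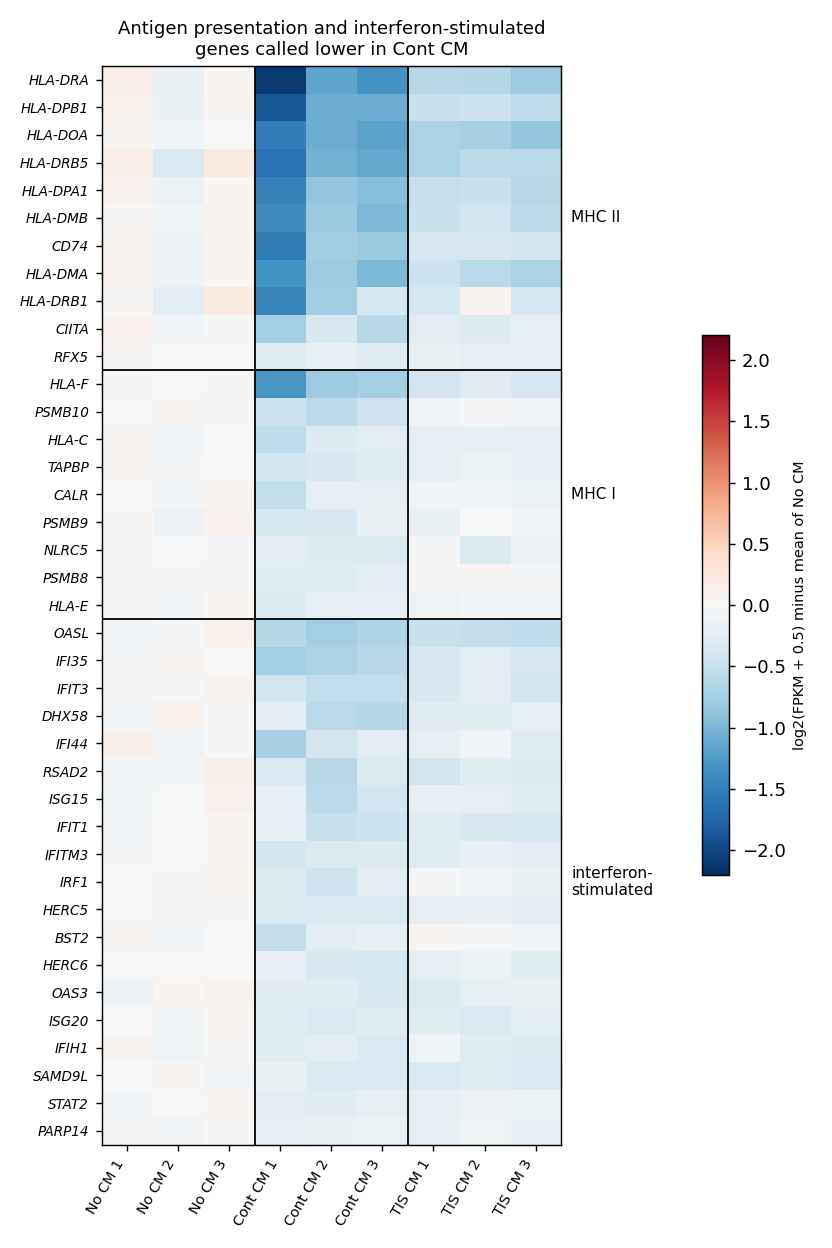
Rows are the 39 antigen presentation and interferon-stimulated genes called lower, columns are the 9 libraries, and colour is log2(FPKM + 0.5) minus the No CM mean of the gene. All Cont CM tiles are blue, from -0.15 to -2.11, with Cont CM replicate 1 darkest in the class II block, while the No CM tiles lie between -0.33 and 0.21.

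Early response genes included a large fall, FOS, beside several rises. FOS, with JUN part of the AP-1 factor, stood at 10.8, 5.93 and 4.68 FPKM in No CM and 1.45, 2.05 and 1.42 in Cont CM, a difference of -1.77 ± 0.29, adjusted p = 0.00504. Of the No CM libraries replicate 1 was highest, and all lay above all Cont CM libraries. Its relative FOSL1 stood at 184, 197 and 177 FPKM in No CM and 228, 257 and 256 in Cont CM and rose by 0.41 ± 0.06, adjusted p = 0.00259. JUNB and KLF2 fell (-0.40 ± 0.07) and -0.47 ± 0.05, and JUNB did not pass with the trend removed (adjusted p = 0.0755). DUSP1, a phosphatase that shuts off MAP kinases, stood at 18.8, 23.1 and 19.3 FPKM in No CM and 58.5, 33.5 and 34.3 in Cont CM (0.98 ± 0.19, adjusted p = 0.00889), with Cont CM replicate 1 far above. Of 21 early genes 9 rose and 3 fell (median 0.07). The rises were 5 without No CM replicate 1 and 4 without No CM replicate 3, and the falls were 6 without Cont CM replicate 1. EGR1, at 18.5, 9.69 and 7.13 FPKM in No CM and 2.89, 10.2 and 8.35 in Cont CM, had a wide spread within groups and did not pass (-0.74 ± 0.45, adjusted p = 0.304). MYC had a difference of 0.20 ± 0.06, adjusted p = 0.0389, a call lost without No CM replicates 1, 2 or 3 or Cont CM replicates 2 or 3 (adjusted p 0.0595 to 0.132).

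Feedback genes of the ERK pathway held 3 higher and 1 lower of 19 (median -0.03), and without No CM replicates 1 or 3 or Cont CM replicate 2 the first was 1. DUSP5, a nuclear ERK phosphatase, rose by 0.37 ± 0.05, adjusted p = 0.00149 and SPRY1, an inhibitor of receptor kinases, fell (-0.63 ± 0.09, adjusted p = 0.0024). DUSP6 (-0.40 ± 0.18, adjusted p = 0.156), SPRY2 (-0.03 ± 0.04, adjusted p = 0.656) and SPRY4 (-0.11 ± 0.07, adjusted p = 0.354) did not pass. Of the EGF family, the receptor EGFR rose from 26.8, 25.2 and 25.1 to 32.2, 34.4 and 32.8 FPKM (0.36 ± 0.04, adjusted p = 0.000656) and its ligand HBEGF by 0.31 ± 0.05, adjusted p = 0.00611.

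NGFR, the low-affinity receptor of neurotrophins, had a large fall. It stood at 6.92, 4.79 and 6.75 FPKM in No CM and 0.606, 1.84 and 2.19 in Cont CM, a difference of -1.79 ± 0.29, adjusted p = 0.0046, with Cont CM replicate 1 lowest. BDNF, one of its ligands, did not pass (-0.005 ± 0.09, adjusted p = 0.979). FGF5 rose from 4.27, 4.39 and 4.18 to 6.27, 7.85 and 7.28 FPKM (0.67 ± 0.07, adjusted p = 0.000753). The HGF receptor MET rose by 0.25 ± 0.04, adjusted p = 0.00417, and the PDGF receptor PDGFRB fell (-0.37 ± 0.07, adjusted p = 0.00913). IGFBP4 and IGFBP6, which bind insulin-like growth factors outside the cell, fell, IGFBP4 from 713, 633 and 703 to 332, 434 and 506 (-0.71 ± 0.13, adjusted p = 0.00871) and IGFBP6 (-0.60 ± 0.09, adjusted p = 0.00361). The binding protein IGFBP3 had -0.11 ± 0.10, adjusted p = 0.472.

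In the Wnt pathway 8 of 19 fell and 0 rose (median -0.20), with 1 rise without Cont CM replicates 1 or 2 and on removal of the trend, and 6 of the falls are receptors or coreceptors. FZD7 stood at 24.6, 23.5 and 25.3 FPKM in No CM and 14.9, 15.1 and 16.6 in Cont CM (-0.64 ± 0.05, adjusted p = 0.000105) and FZD1 fell (-0.48 ± 0.06, adjusted p = 0.00124). The coreceptor LRP5 fell (-0.39 ± 0.05, adjusted p = 0.00173) and the ligand WNT9A (-0.54 ± 0.08, adjusted p = 0.00399). The target AXIN2 had -0.35 ± 0.13, adjusted p = 0.0956 and the secreted inhibitor DKK1, at 195, 204 and 208 FPKM in No CM and 336, 222 and 241 in Cont CM, had 0.37 ± 0.13, adjusted p = 0.0786. Of 9 Notch genes 2 fell and 0 rose (median -0.15). LFNG, which sugar-modifies the receptors, stood at 5.25, 4.91 and 4.81 FPKM in No CM and 2.31, 2.29 and 2.30 in Cont CM (-0.97 ± 0.05, adjusted p = 2e-05), and HES1, the classic target, at 6.68, 5.13 and 5.68 FPKM in No CM and 2.04, 3.52 and 3.75 in Cont CM (-0.84 ± 0.18, adjusted p = 0.0142). Both ligand JAG1 (-0.08 ± 0.08, adjusted p = 0.546) and receptor NOTCH1 (0.02 ± 0.04, adjusted p = 0.779) did not pass. Among 19 semaphorins and plexins, guidance molecules, 5 fell and 1 rose (median -0.11), and with the trend removed 2 rose. SEMA3F stood at 3.09, 2.73 and 3.21 FPKM in No CM and 1.19, 1.02 and 1.26 in Cont CM (-1.08 ± 0.10, adjusted p = 0.000309) and SEMA6B at 16.1, 13.1 and 15.2 FPKM in No CM and 6.61, 7.43 and 8.55 in Cont CM (-0.94 ± 0.10, adjusted p = 0.000622). SEMA3B and the receptor PLXNA1 fell (-0.80 ± 0.05) and -0.62 ± 0.09, and SEMA7A rose from 20.6, 23.5 and 21.5 to 37.3, 31.9 and 34.5 FPKM (0.65 ± 0.07, adjusted p = 0.000759).

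Of 12 genes of retinoid signalling 5 fell and 1 rose (median -0.09), and without No CM replicates 2 or 3 or Cont CM replicate 2 there were 3 falls, and without Cont CM replicate 1 2 rises. RARRES3, a retinoid-responsive phospholipase that is also interferon-inducible, stood at 56.4, 49.1 and 57.8 FPKM in No CM and 15.7, 19.7 and 24.8 in Cont CM (-1.44 ± 0.16, adjusted p = 0.000735), and DHRS3, a retinaldehyde reductase, at 4.57, 3.10 and 4.01 FPKM in No CM and 1.56, 1.93 and 2.23 in Cont CM (-0.86 ± 0.15, adjusted p = 0.00579). Both were lower in every Cont CM library. RARB, itself a retinoid target, stood at 0.816, 1.16 and 0.898 FPKM in No CM and 2.42, 1.44 and 1.65 in Cont CM and rose (0.67 ± 0.16, adjusted p = 0.0235), a call lost without No CM replicates 1 or 3 (adjusted p 0.0742 to 0.0793). The receptors RARA (-0.0033 ± 0.07, adjusted p = 0.981) and RARG (-0.01 ± 0.05, adjusted p = 0.935) did not pass. Of 6 genes of the aryl hydrocarbon receptor 2 rose and 2 fell (median -0.11). The targets CYP1A1, at 0.854, 1.10 and 0.975 FPKM in No CM and 2.21, 2.24 and 2.15 in Cont CM (0.88 ± 0.08, adjusted p = 0.000244), and TIPARP (0.53 ± 0.05, adjusted p = 0.000373) rose. The target NQO1, given with the oxidant response, and the receptor AHR (-0.23 ± 0.06, adjusted p = 0.0304) fell. The AHR call was lost without No CM replicates 1 or 3 or Cont CM replicates 1 or 3 (adjusted p 0.0559 to 0.0759), and the falls were 0 without No CM replicates 1 or 3 and 1 without No CM replicate 2 or Cont CM replicate 3. CYP1B1, at 46.2, 41.4 and 44.9 FPKM in No CM and 27.0, 39.7 and 36.6 in Cont CM, did not pass (-0.37 ± 0.12, adjusted p = 0.0648). Clock genes were near the background, with 2 higher and 1 lower of 14 (median -0.08). The call of CLOCK (0.21 ± 0.04, adjusted p = 0.0134) was lost without No CM replicate 3 (adjusted p = 0.0536), that of CRY1 (0.27 ± 0.07, adjusted p = 0.0393) without No CM replicates 1 or 3 or Cont CM replicates 1 or 3 (adjusted p 0.0698 to 0.131), and that of TEF (-0.37 ± 0.08, adjusted p = 0.0187) without No CM replicates 1 or 3 or Cont CM replicate 2 (adjusted p 0.0525 to 0.0671). With the trend removed none of the clock genes rose.

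Of 25 targets of NRF2, the factor of the oxidant response, 10 fell and 1 rose (median -0.09), and without No CM replicates 2 or 3 there were 6 falls. OSGIN1, an oxidant-induced growth inhibitor, stood at 5.21, 5.80 and 5.58 FPKM in No CM and 3.65, 3.77 and 4.02 in Cont CM and fell (-0.48 ± 0.05, adjusted p = 0.000927). The epoxide hydrolase EPHX1 (-0.48 ± 0.05, adjusted p = 0.000379) and the glutathione reductase GSR (-0.40 ± 0.06, adjusted p = 0.0022) also fell. NQO1 had a difference of -0.30 ± 0.08, adjusted p = 0.0347, a call lost without No CM replicates 1, 2 or 3 (adjusted p 0.0504 to 0.107). SLC7A11, the cystine carrier and also an ATF4 target, rose from 5.41, 4.98 and 4.39 to 6.62, 7.01 and 7.05 FPKM (0.45 ± 0.08, adjusted p = 0.00577), and HMOX1 (0.17 ± 0.10, adjusted p = 0.289) and GCLM (-0.08 ± 0.05, adjusted p = 0.3) did not pass. AKR1C1, which has near-identical relatives, had a large but uneven difference (1.05 ± 0.42, adjusted p = 0.12).

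Among iron genes SLC40A1, the iron exporter ferroportin, stood at 2.98, 2.42 and 2.88 FPKM in No CM and 0.735, 0.941 and 0.783 in Cont CM (-1.30 ± 0.10, adjusted p = 0.000157) with groups wide apart. TFRC, the importing transferrin receptor, rose by 0.19 ± 0.04, adjusted p = 0.0078, and did not pass with the trend removed (adjusted p = 0.09). FTH1, the ferritin heavy chain, fell (-0.26 ± 0.06, adjusted p = 0.0218), a call lost without No CM replicates 2 or 3 (adjusted p 0.0549 to 0.0799). Of 11 tested 2 rose and 3 fell (median -0.04), with 1 rise without No CM replicates 1, 2 or 3 or Cont CM replicates 2 or 3, and 1 fall without No CM replicate 3. There were 0 rises with the trend removed.

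Carriers of amino acids moved in both directions. SLC7A5 and SLC1A5, which import large neutral amino acids and glutamine, fell, SLC7A5 from 92.5, 96.1 and 96.5 to 71.5, 64.5 and 71.0 FPKM (-0.46 ± 0.05, adjusted p = 0.000458) and SLC1A5 (-0.21 ± 0.04, adjusted p = 0.0085). SLC1A5 did not pass with the trend removed (adjusted p = 0.0912). PPP1R15A, the stress-induced phosphatase subunit GADD34, rose by 0.46 ± 0.04, adjusted p = 0.000324. ATF4 had a difference of 0.16 ± 0.04, adjusted p = 0.041, a call lost without No CM replicates 1, 2 or 3 or Cont CM replicates 2 or 3 (adjusted p 0.0698 to 0.117). Its targets CHAC1 (0.23 ± 0.10, adjusted p = 0.137), TRIB3 (0.15 ± 0.07, adjusted p = 0.189) and DDIT3 (0.05 ± 0.12, adjusted p = 0.818) did not pass. Of 27 genes 5 rose and 2 fell (median 0.05), and the rises were 2 without No CM replicate 3 and 3 without No CM replicate 1 or Cont CM replicates 2 or 3, and the falls 4 without Cont CM replicate 1. Removal of the trend gave 9 rises and 1 fall. TXNIP, which follows glucose, had a difference of 0.16 ± 0.06, adjusted p = 0.114.

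The lysosomal list was near the background, with 4 higher and 3 lower of 44 (median -0.05). CTSD, the lysosomal aspartic protease, fell from 196, 213 and 207 to 129, 101 and 121 FPKM (-0.82 ± 0.08, adjusted p = 0.000379), while CTSB had 0.17 ± 0.04, adjusted p = 0.0322, a call lost without No CM replicates 1, 2 or 3 or Cont CM replicates 2 or 3 (adjusted p 0.0668 to 0.0998). MITF and TFE3, factors of lysosome synthesis, rose by 0.45 ± 0.07 and 0.20 ± 0.04. Single libraries moved these counts, to 2 rises without any of No CM replicates 1, 2 or 3 or Cont CM replicates 2 or 3 and to 1 fall without No CM replicates 2 or 3. The unfolded protein response held 3 higher and 2 lower of 19 (median -0.14), with 0 higher without No CM replicates 2 or 3, 1 without No CM replicate 1 or Cont CM replicates 2 or 3, and 1 and 0 lower without No CM replicates 1 and 3. There was 1 higher with the trend removed. HSPA5, its main chaperone, had -0.23 ± 0.09, adjusted p = 0.112 and did not pass. Metallothionein and zinc genes held 0 calls in 10, with MT2A at 0.05 ± 0.10, adjusted p = 0.788. Without Cont CM replicate 1 there were 1 rise and 2 falls, all of zinc carriers, and with the trend removed 1 fall.

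All 13 mitochondrially encoded genes had positive differences (median 0.45), but 1 passed, MT-ATP8 (0.51 ± 0.14, adjusted p = 0.0386), a call lost without No CM replicates 2 or 3 or Cont CM replicates 1, 2 or 3 (adjusted p 0.0575 to 0.107). The share of fragments on mitochondrial genes was 3.15%, 2.17% and 1.85% in No CM and 2.80%, 3.31% and 2.97% in Cont CM. Without No CM replicate 1, the No CM library with the highest share, 12 of the 13 were called, and without any other of the 6 libraries 0 were. Nuclear genes of oxidative phosphorylation held 0 higher and 5 lower of 42 (median -0.10), 8 without Cont CM replicate 1, 1 without No CM replicates 2 or 3 and 2 without Cont CM replicates 2 or 3. There were 10 lower with the trend removed. COX8A, a subunit of cytochrome oxidase, fell (-0.45 ± 0.08, adjusted p = 0.00796). Cytosolic ribosomal proteins held 6 lower and 0 higher of 77 (median -0.05), and the 7.79% lower was near the 8.56% of all genes. RPS12 was among the 6 (-0.29 ± 0.06, adjusted p = 0.00913). The falls were 3 without No CM replicate 2 and 1 without No CM replicate 3, and without Cont CM replicate 1 there were 7 falls and 6 rises.

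A minority of proliferation genes fell, but most had differences below 0. Of 29 genes of the G1/S transition and DNA replication 6 fell and 0 rose (median -0.08). Of 31 of mitosis 9 fell and 0 rose (median -0.11), where 8.56% of all genes fell. Differences lay below 0 for 21 of the 29 in the first list and for 30 of the 31 in the second. Without No CM replicates 1 and 3 the falls were 3 and 2 in the first and 5 and 4 in the second. With the trend removed the falls in the first were 3. E2F2 (-0.50 ± 0.09, adjusted p = 0.00662) and E2F8 (-0.27 ± 0.04, adjusted p = 0.00495), factors of the S phase programme, fell. CDC25B, the phosphatase that starts mitosis, fell from 51.0, 51.7 and 50.6 to 38.6, 35.9 and 38.5 FPKM (-0.44 ± 0.04, adjusted p = 0.000267), and the cyclin CCNA2 (-0.26 ± 0.05, adjusted p = 0.00829). MKI67 had a difference of -0.04 ± 0.09, adjusted p = 0.825, TOP2A -0.11 ± 0.06, adjusted p = 0.225 and PCNA -0.03 ± 0.08, adjusted p = 0.811, and none of these 3 passed. LMNB1, the nuclear lamin that is lost in senescent cells, stood at 45.1, 43.3 and 45.4 FPKM in No CM and 29.8, 35.2 and 34.8 in Cont CM (-0.42 ± 0.06, adjusted p = 0.00273).

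Of the inhibitors of cyclin-dependent kinases 3 fell. CDKN2C, which encodes p18, stood at 19.0, 19.0 and 18.6 FPKM in No CM and 10.8, 11.9 and 13.1 in Cont CM (-0.65 ± 0.06, adjusted p = 0.000295), CDKN1C, p57, at 5.46, 5.88 and 5.38 FPKM in No CM and 4.0, 2.97 and 3.04 in Cont CM (-0.67 ± 0.09, adjusted p = 0.00223), and CDKN1B, p27, at 15.7, 16.6 and 15.6 FPKM in No CM and 13.1, 12.3 and 12.9 in Cont CM (-0.31 ± 0.04, adjusted p = 0.00196). All 3 were lower in every Cont CM library. CDKN1A, p21, had a difference of 0.24 ± 0.10, adjusted p = 0.144. Of 19 genes of arrest and of the p53 response 5 fell and 1 rose (median -0.12), 3 without No CM replicates 1 or 3 or Cont CM replicates 2 or 3, and without Cont CM replicate 1, and on removal of the trend, there were 2 rises.

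Several epithelial markers fell, some at low levels in this line and others, KRT8 and KRT18, at high levels. CDH1, E-cadherin, stood at 1.23, 1.12 and 1.16 FPKM in No CM and 0.388, 0.212 and 0.297 in Cont CM (-1.07 ± 0.11, adjusted p = 0.000584), and AGR2, a secretory disulfide isomerase, at 2.54, 2.39 and 2.35 FPKM in No CM and 0.895, 0.951 and 0.887 in Cont CM (-1.05 ± 0.13, adjusted p = 0.00129). Both lay under 1 FPKM in every Cont CM library. SPDEF, a luminal ETS factor, and KRT19 fell (-0.46 ± 0.05) and -0.36 ± 0.05, and KRT8 and KRT18 had -0.43 ± 0.08 and -0.37 ± 0.08, with the KRT18 call lost without No CM replicate 3 (adjusted p = 0.0536). Of 7 luminal markers, which do not include KRT8 and KRT18, 5 fell and 0 rose (median -0.36). The 5 were CDH1, AGR2, SPDEF, KRT19 and GATA3. The GATA3 call was lost without No CM replicates 2 or 3 or Cont CM replicates 2 or 3 (adjusted p 0.0581 to 0.0752). Junction genes did not all follow, since CLDN7 rose by 0.43 ± 0.08, adjusted p = 0.00765 and EPCAM had 0.02 ± 0.09, adjusted p = 0.918. SNAI2, a repressor of epithelial genes, rose from 8.88, 9.6 and 9.24 to 11.6, 11.8 and 10.8 FPKM (0.29 ± 0.04, adjusted p = 0.00374), and ZEB1 had 0.16 ± 0.06, adjusted p = 0.0896. Of 12 tested adhesion genes and transcription factors of the epithelial-mesenchymal transition 4 rose and 2 fell (median 0.15). CLDN7, CLDN1, the cadherin CDH4 and SNAI2 rose, and CDH1 and another cadherin, CDH11 (-0.48 to -0.42 across the omissions), fell. The CLDN1 call was lost without No CM replicates 1 or 3 (adjusted p 0.0854 to 0.0992) and with the trend removed. S100A4, a calcium-binding protein of migrating cells, fell from 479, 519 and 559 to 394, 303 and 343 (-0.59 ± 0.09, adjusted p = 0.00376). In the S100 genes 5 of 9 fell and 0 rose (median -0.32), 2 without No CM replicates 2 or 3 and 3 without Cont CM replicate 3.

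Of 8 ligands of immune checkpoints 3 rose and 1 fell (median -0.09), and without Cont CM replicate 1 there were 3 falls. CD274 stood at 7.40, 7.34 and 7.77 FPKM in No CM and 12.6, 11.3 and 11.9 in Cont CM (0.64 ± 0.05, adjusted p = 0.000133), and PDCD1LG2, which encodes PD-L2, at 2.52, 2.12 and 2.07 FPKM in No CM and 3.14, 3.75 and 3.72 in Cont CM (0.56 ± 0.09, adjusted p = 0.00442). Both were above No CM in every Cont CM library. The 1 fall, CD276 (-0.19 ± 0.05, adjusted p = 0.0435), was lost without No CM replicates 1 or 3 or Cont CM replicates 1, 2 or 3 (adjusted p 0.0575 to 0.142). In prostaglandin synthesis PTGS2 rose as given above, and PTGES, the synthase that follows it, fell from 101, 88.9 and 96.5 to 43.8, 50.4 and 51.8 FPKM (-0.97 ± 0.08, adjusted p = 0.000159). CLU, the chaperone clusterin and a complement regulator, fell from 16.1, 15.2 and 17.0 to 7.42, 7.70 and 8.76 (-0.97 ± 0.06, adjusted p = 7.87e-05). It was the 1 call of 13 complement genes, and there were 3 without Cont CM replicate 1 and 2 with the trend removed.

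Further genes with large changes fall outside these groups. LGALS12 (chromosome 11, 63506084 to 63516774), a galectin known from fat cells, stood at 8.66, 6.17 and 7.88 FPKM in No CM and 1.09, 1.38 and 1.62 in Cont CM. Its difference was -2.11 ± 0.14, adjusted p = 7.87e-05, the largest fall among protein-coding genes tested. PLEKHS1 (3.07, 2.41 and 2.79 FPKM in No CM and 0.516, 0.790 and 0.812 in Cont CM, -1.44 ± 0.12, adjusted p = 0.000227), PI16, a secreted peptidase inhibitor (5.13, 4.17 and 5.43 FPKM in No CM and 1.35, 1.74 and 1.8 in Cont CM, -1.34 ± 0.12, adjusted p = 0.000325) and SPINK4, a secreted protein of the same broad class (18.7, 17.8 and 17.2 FPKM in No CM and 5.19, 9.04 and 7.37 in Cont CM, -1.29 ± 0.17, adjusted p = 0.00202) fell by more than 2-fold. IRX3, a homeobox factor, stood at 8.48, 8.6 and 8.42 FPKM in No CM and 3.47, 3.66 and 3.55 in Cont CM with the smallest spread within groups of these genes (-1.15 ± 0.04, adjusted p = 2.19e-06). KISS1, which encodes the secreted peptide kisspeptin, stood at 5.11, 5.52 and 5.55 FPKM in No CM and 16.4, 9.64 and 9.14 in Cont CM (1.01 ± 0.19, adjusted p = 0.00859), and PSG9, a pregnancy-specific glycoprotein, at 0.422, 0.989 and 0.692 FPKM in No CM and 3.19, 1.41 and 1.61 in Cont CM (1.06 ± 0.25, adjusted p = 0.0207). Both were highest in Cont CM replicate 1, and the PSG9 call was lost without No CM replicates 1 or 3 (adjusted p 0.0637 to 0.0667). TEX48, at 0.352, 0.823 and 0.329 FPKM in No CM and 2.14, 1.22 and 1.37 in Cont CM, rose by 1.06 ± 0.22, adjusted p = 0.013, a call lost without No CM replicate 3 (adjusted p = 0.0532).

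Smaller families are given by their counts. Of 10 tubulins 3 rose and 0 fell (median -0.02), of 18 FOXO and glucose-responsive genes 4 rose and 2 fell (median 0.06), and of 20 genes of MYC and ribosome synthesis 3 rose and 0 fell (median 0.05). Without No CM replicate 3 the FOXO genes had 2 rises. The MYC genes had 0 rises without that library and 1 without No CM replicates 1 or 2 or Cont CM replicates 2 or 3. TUBB6, a beta tubulin with close relatives, rose (0.29 ± 0.04, adjusted p = 0.00264), and KLF10, an early TGF-beta target, rose (0.42 ± 0.08, adjusted p = 0.00698). Of 16 heat shock genes 2 rose and 1 fell (median 0.02), and the rises were 1 without No CM replicates 1 or 2 or Cont CM replicate 3, and the falls 2 and 3 without No CM replicate 1 and Cont CM replicate 1. Both counts were 0 with the trend removed. Of 12 replication-dependent histone genes, whose messages lack poly(A) tails and are poorly caught by poly-T beads, 1 fell (median -0.18). This was HIST1H2BC (-0.55 ± 0.15, adjusted p = 0.0393), a call lost without No CM replicates 1 or 3 or Cont CM replicates 1 or 2 (adjusted p 0.0663 to 0.135), and without Cont CM replicate 1 there were 2 falls in the list.

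Among noncoding genes 31 of 408 lincRNAs (long intergenic noncoding RNAs) rose and 13 fell, and 16 of 1070 antisense genes rose and 32 fell. These calls were 10.8% and 4.49% of the tested genes of each kind, both under the 16.3% of all genes. AC034223.2 stood at 2.60, 2.61 and 1.78 FPKM in No CM and 5.71, 6.89 and 4.68 in Cont CM (1.14 ± 0.20, adjusted p = 0.00637), LINC00880 at 0.987, 1.13 and 1.14 FPKM in No CM and 2.06, 3.58 and 3.08 in Cont CM (1.08 ± 0.15, adjusted p = 0.00258) and LINC02407 at 4.49, 5.52 and 4.39 FPKM in No CM and 13.3, 9.97 and 8.79 in Cont CM (1.06 ± 0.14, adjusted p = 0.00191). AC034223.2 overlaps another lincRNA on the same strand, and LINC02407 overlaps no annotated gene. Of the 3 that fell most, AC025154.2 (-1.59 ± 0.21, adjusted p = 0.00208) overlaps AQP5 on the opposite strand, a water channel gene that fell too (-1.22 ± 0.26, adjusted p = 0.0135, a call lost without No CM replicate 3 (adjusted p = 0.0501)). AC068580.1 (-0.99 ± 0.19, adjusted p = 0.00963) lies within CTSD on its strand, which also fell. AC084117.1 (-1.13 ± 0.23, adjusted p = 0.0128) lies within LDHA, which did not pass. No source used here gives the strand setting of the counting, and the reads of such pairs cannot be told apart. Of 941 transcription factor genes in the deposited annotation 62 rose and 72 fell, 14.2% called against 16.3% of all genes, and the bZIP family (6 higher and 7 lower of 39) and bHLH family (5 higher and 7 lower of 40) had calls in both directions. Zinc finger genes of the C2H2 class had 36 calls, 22 higher and 14 lower of 458, or 7.86% against 16.3% of all genes.

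The TIS CM libraries entered the fit through the shared estimate of the spread and are given here as levels only. The TIS CM mean lay between the other 2 means for 985 of the 1081 genes that rose and 1026 of the 1191 that fell, and for 6702 of all 13912. Since the genes were chosen by the contrast of the outer groups, this is a description. ANGPTL4 stood at 11.3, 9.55 and 11.6 FPKM in TIS CM, PLIN2 at 24.5, 23.3 and 25.1, CX3CL1 at 3.74, 3.75 and 3.58 and ID1 at 84.8, 78.2 and 76.2. CIITA stood at 1.52, 1.45 and 1.64, OASL at 7.91, 7.78 and 7.53 and CD274 at 9.86, 9.29 and 9.94. For ANGPTL4, PLIN2, CX3CL1, ID1, CIITA, OASL and CD274 the TIS CM means of 10.8, 24.3, 3.69, 79.7, 1.54, 7.74 and 9.70 FPKM all lay between their means in No CM and Cont CM.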

How the data were processed

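Poly-A RNA of MDA-MB-231 cells was sequenced in 9 libraries, 3 for each of the 3 groups, on random-primed cDNA per the labels' protocols. The submitters' processing notes name HISAT2 (2.0.5), the build hg38, fastp, DESeq2 (1.20.0) and featureCounts (1.5.0-p3), and the roles of these tools, their settings and the strand setting are not given in the sources used here. The authors deposited FPKM per gene. Gene IDs and coordinates match GENCODE 29. FPKM and gene length gave back whole fragments within a tolerance of 0.01, and totals ran from 32636708 to 39189036 per library.

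From the deposited FPKM, genes with a mean of at least 0.5 over the 9 libraries were kept, log2(FPKM + 0.5) was fitted by group with limma 3.58.1 (R 4.3.3) with an intensity trend, and p-values were adjusted by Benjamini-Hochberg and called under 0.05. The fit was tested on simulated data. The comparison, the gene lists and the naming rule were chosen with earlier results of these data known, so neither counts nor lists are independent evidence. Called protein-coding genes without overlap between groups that had the 15 largest rises and falls, the 3 noncoding genes with the largest change each way, up to 5 called genes per list and direction, and fixed regulators were named. Other list members named were chosen after their values were seen. A few genes are not reported here, nor named in the figures. Promoter windows came from the RefSeq table of GRCh38.p14. Alternatives covered the pseudocount, filter, scaling, voom on recovered fragments, the libraries fitted, a replicate block, removal of the trend with GC content and length, and each library left out.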

Additional observations from a re-analysis of the deposited data

How the results depend on the processing

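The number of genes called depended on the libraries and on which groups shared the estimate of spread, and no gene named by the rule changed direction while called. Genes higher and lower were 1081 and 1191 as reported. They were 573 and 669 with only the 6 compared libraries, and 741 and 792 with no filter on low values, where more genes were tested. Leaving out single libraries gave between 492 and 1332 genes higher and between 583 and 1438 lower, lowest without No CM replicate 3 and highest without Cont CM replicate 1. With the replicate number as a block the counts were 672 and 789, and with the block and the trend in GC content and length removed together they were 662 and 758. Deviations of same-numbered libraries correlated at -0.187, -0.126 and 0.084, and those of differently numbered ones at -0.129 to 0.201. With 3 libraries per group, such values cannot show whether the numbers mark shared batches. The lower counts with the block therefore remain a limit. Removal of the trend alone gave 992 and 1129, with 41 named calls lost, pseudocounts of 0.1 and 1 gave 1080.0 and 1186 and 1080.0 and 1196, and a mean of at least 2 FPKM 1007 and 1110.0. Protein-coding genes alone gave 1216 and 1375. Scaling to equal sums gave 862 and 1399, which lowered the share of higher among calls from 47.6% to 38.1%, upper quartiles 1063 and 1222, and quantile normalization 1129 and 1113. limma-voom on the recovered fragments, whole for all values tested, gave 1292 and 1402. The median difference of all genes was -0.00056 as reported, -0.021 with equal sums and 0.0071 with quantile normalization, which were the furthest from it among the scalings. Of the 280 named genes that were called, 187 kept the call in all 6 omissions of a compared library. Of the 64 gene lists with a tested member, counts in either direction moved by more than 1.5 times in 24 with the trend removed, 33 with the 6 libraries alone, 30 with the block, 28 with no filter, 16 with voom, 5 with equal sums and 11 to 13 when a TIS CM library was left out. IGFBP4, INSIG2, KRT19, PDGFRB and PKM lost their calls with the block and the trend removal together, at adjusted p between 0.0513 and 0.0888. FPKM of low genes rests on few fragments, and 8.68% of genes under 2 FPKM were called.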

Other observations

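The genes here were chosen after their values were seen. AQP1, a water channel like AQP5 described above, stood at 0.951, 1.32 and 1.19 FPKM in No CM and 0.432, 0.414 and 0.438 in Cont CM (-0.83 ± 0.10, adjusted p = 0.00149). Its 3 Cont CM libraries lay close together and under all No CM libraries. FOXQ1, a forkhead factor, stood at 26.7, 24.7 and 25.4 FPKM in No CM and 11.3, 12.2 and 12.4 in Cont CM (-1.07 ± 0.05, adjusted p = 1.65e-05), and FOXO6 fell as well (-1.02 ± 0.12, adjusted p = 0.00138). IRX5, a homeobox gene of the same cluster as IRX3, fell (-0.79 ± 0.13, adjusted p = 0.00516).

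Salivary cystatins, inhibitors of cysteine proteases that lie side by side and are near-identical, moved in opposite directions. CST1 stood at 446, 565 and 585 FPKM in No CM and 907, 777 and 854 in Cont CM (0.68 ± 0.12, adjusted p = 0.00576) and CST2 at 24.9, 23.7 and 26.2 FPKM in No CM and 9.08, 14.2 and 13.7 in Cont CM (-1.01 ± 0.16, adjusted p = 0.00401), while CST4 did not pass (0.14 ± 0.05, adjusted p = 0.105). Since their reads can be shared, the split between them is uncertain. EDN1, which encodes the vasoconstrictor endothelin, stood at 16.1, 16.9 and 14.2 FPKM in No CM and 32, 24.6 and 22.5 in Cont CM (0.72 ± 0.11, adjusted p = 0.00417). STC1, a secreted glycoprotein, had 28.4, 25.9 and 26.0 FPKM in No CM and 32.6, 49.3 and 45.7 in Cont CM (0.64 ± 0.13, adjusted p = 0.0106). VCAM1, an adhesion molecule of inflamed endothelium, had 1.77, 1.42 and 1.35 FPKM in No CM and 0.556, 0.789 and 0.683 in Cont CM (-0.78 ± 0.12, adjusted p = 0.00309), and NLRP3, the sensor that leads to release of active interleukin-1 beta, had 1.25, 1.13 and 1.37 FPKM in No CM and 2.38, 2.21 and 2.03 in Cont CM (0.63 ± 0.08, adjusted p = 0.00147).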
